A study of Saccharomyces cerevisiae with 15 samples.

Results

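DDR2, SPI1, HSP12, DDR48, GRE1, HBT1, MSC1, PHM7, NCE103 and PNC1 are 10 genes of the general stress response of budding yeast, taken from 6249 genes or probes on the array and chosen by their large rises in treated cells on these same arrays. Their systematic names are YOL052C-A, YER150W, YFL014W, YMR173W, YPL223C, YDL223C, YML128C, YOL084W, YNL036W and YGL037C in the same order. Each was measured by 1 probe. All 10 had a value on every array, as did 4653 genes or probes in all, and these 4653 form the background throughout. The log2 ratios of treated over mid-log samples served for that choice, so their size is described here without a test.

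When yeast cells meet stress or lose a nutrient, the zinc finger activators Msn2 and Msn4 enter the nucleus and bind stress response elements in the promoters of a broad set of protective genes. During growth on glucose, protein kinase A and the TORC1 kinase complex keep these activators out of the nucleus. Snf1, the yeast AMP-activated protein kinase, is needed to use carbon sources other than glucose, and part of the present comparison asks how the genes behave without it. The products differ widely. They include cell wall, membrane and hydrophilic proteins as well as a carbonic anhydrase and a nicotinamidase.

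The arrays were 2-colour arrays, 1 for each condition, of Saccharomyces cerevisiae in the W303 background, mating type a, with polyA RNA of both cultures hybridised together. The snf1 deletion strain (ACY509) was grown to mid-log phase and exposed for 20 minutes to nitrogen starvation, 0.375 M KCl, 0.1% glucose or 0.02% glucose, each against untreated mid-log cells of that strain, and 1 further array (the mid-log strain array) set untreated snf1 cells, labelled only by the deletion, against mid-log wild-type cells. The wild-type strain (ACY044) was exposed for 20 minutes to combined treatments (nitrogen and glucose starvation, glucose starvation with 200 nM rapamycin, nitrogen starvation with 0.375 M KCl) or to single ones (200 nM rapamycin, which inhibits TORC1, starvation for nitrogen or for amino acids, 0.375 M KCl, 0.1% glucose, 0.4 mM hydrogen peroxide, or heat shock at 42 °C), each against mid-log wild-type cells. Each genotype was 1 strain made by homologous recombination, and the labels do not say whether arrays shared a mid-log culture. A ratio carries no level, so the mating type could not be checked from its markers, and SNF1 itself was listed at 0.00 on the mid-log strain array, which counts as missing, so the deletion could not be checked there. In the snf1 strain the SNF1 probe was at 2.57 in 0.1% glucose, 0.32 in nitrogen starvation and 0.05 in KCl, against 0.64, −0.06 and 0.36 in wild-type cells, and at 0.95 in 0.02% glucose. The value of 2.57 comes from a gene labelled as deleted, on an array of the main comparison, and whether its signal was above background was not tested. With 1 array per condition nothing was replicated, and precision is limited by the number of arrays. In bulk cultures, fewer responding cells and a smaller response per cell cannot be told apart.

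Dim spots were not handled alike on all arrays. On 6 arrays (wild-type rapamycin, nitrogen starvation, amino acid starvation, KCl and heat shock, and the mid-log strain array) between 717 and 1256 spots were exactly 0, and the peroxide array had 842 blanks. The other 8 arrays, which include all 4 treated snf1 arrays and wild-type cells in 0.1% glucose, had 21 to 48 zeros. The zeros on the 6 arrays were taken as no value, and none of the 10 genes had one. Peroxide was also the only array with treated cells in Cy3, and its sign was turned.

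DDR2 and SPI1, a small multistress protein of unknown mechanism and a cell wall protein tethered through a lipid anchor, had the highest ratios. On the log2 scale of treated over mid-log wild-type cells, DDR2 stood at 7.47 in KCl, 6.69 in 0.1% glucose, 6.38 at heat shock, 5.11 in peroxide, 4.50 with rapamycin, 4.47 in amino acid starvation and 4.28 in nitrogen starvation. Its lowest ratio was thus 19.4-fold and its highest 177-fold. It was never below rank 26 among the 4653 genes on these 7 arrays, and ranked 3 in 0.1% glucose. SPI1 was at 7.59 at heat shock, 7.25 in KCl, 4.36 in 0.1% glucose, 3.31 with rapamycin, 2.95 in peroxide, 2.90 in amino acid starvation and 2.77 in nitrogen starvation. Only KCl and heat shock brought SPI1 above 7, and the other 5 arrays lay between 2.77 and 4.36.

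HSP12, a small hydrophilic protein that protects membranes, had log2 ratios of 1.69 in amino acid starvation, 1.79 with rapamycin, 2.15 in nitrogen starvation, 3.52 in 0.1% glucose, 3.89 in peroxide, 4.12 at heat shock and 4.68 in KCl. Rapamycin, nitrogen starvation and amino acid starvation were the 3 lowest. MSC1, named from a mutant with altered meiotic recombination between sister chromatids, and PHM7, a membrane protein of unknown function, had medians of 3.29 and 2.88 over these 7 arrays. MSC1 ranged from 2.34 with rapamycin to 5.98 in KCl. PHM7 ranged from 1.34 with rapamycin to 6.62 at heat shock, where it ranked 9, just above its 5.96 in KCl.

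GRE1, a hydrophilin linked to survival of water loss, and HBT1, a protein of polarised growth that binds the ubiquitin-like protein Hub1, had their highest log2 ratios in KCl. GRE1 was at 6.78 in KCl and 3.48 in 0.1% glucose, and between 1.18 and 2.12 on the 5 remaining wild-type arrays with a single treatment. HBT1 was at 5.32 in KCl, 3.68 in 0.1% glucose, 2.14 in amino acid starvation, 1.69 in nitrogen starvation, 1.51 in peroxide, 1.31 with rapamycin and 0.68 at heat shock. Heat shock, where SPI1 and PHM7 were highest, was the lowest array for HBT1 and the only one of the 7 below 2-fold.

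The enzymes had their own orders. NCE103, the carbonic anhydrase that supplies bicarbonate for biosynthesis, had log2 ratios of 4.98 in 0.1% glucose, 4.60 in amino acid starvation, 4.45 in nitrogen starvation, 4.42 in KCl, 3.42 with rapamycin and 3.14 in peroxide, and 1.15 at heat shock. PNC1, the nicotinamidase of NAD salvage, ran the other way, with 3.40 at heat shock, 2.98 in KCl and 2.75 in peroxide. Its ratios were 1.49 in 0.1% glucose, 1.09 in amino acid starvation, 0.89 in nitrogen starvation and 0.53 with rapamycin. DDR48, the product of a gene first found through its response to DNA damage, was at 2.83 in peroxide, 2.51 at heat shock and 2.11 in KCl, against 0.44 to 0.57 on the other 4 arrays, all under 2-fold.

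**Figure D1:**
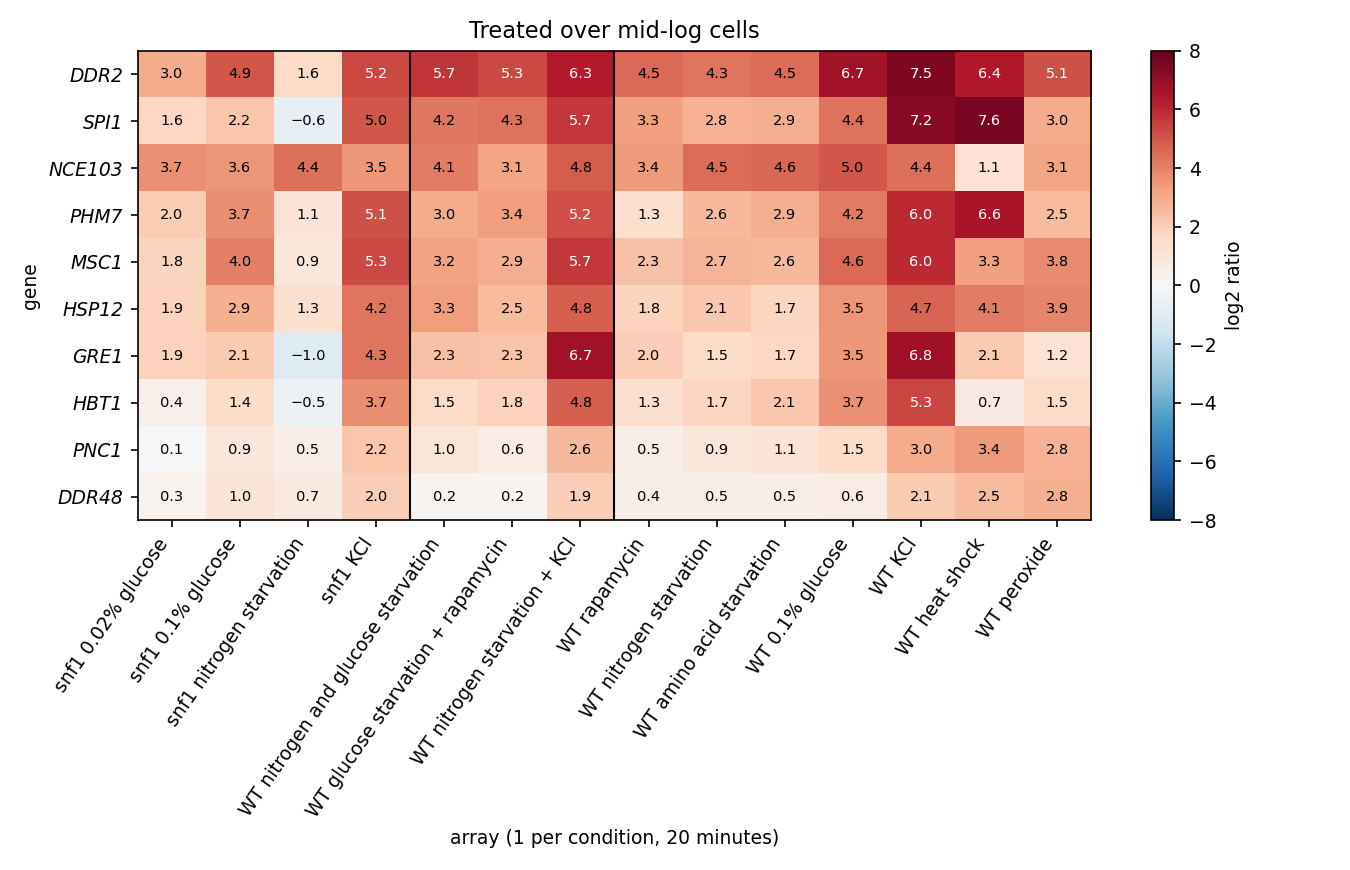
Treated over mid-log ratios (log2) for the 10 genes (rows) on the 14 arrays of treated cells (columns: snf1 strain, then wild type under combined treatments, then wild type under single treatments), 1 array per condition; red is above 0 and blue below. Among wild-type single treatments KCl was highest for 5 genes (DDR2, HSP12, GRE1, HBT1 and MSC1), and the only values below 0 are SPI1, GRE1 and HBT1 in snf1 cells in nitrogen starvation.

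Across the 14 arrays of treated cells, 137 of the 140 values were above 0 and 119 were at least 2-fold higher. All 10 genes were above 0 on each wild-type array with a single treatment (17.1% of all genes) and 7 on all 14 arrays (10.9%). In wild-type cells the number of the 10 genes at least 2-fold higher was 10 in KCl (12.4% of all genes), 10 in peroxide (9.69%), 9 at heat shock (15.9%), 9 in 0.1% glucose (14.6%), 9 in amino acid starvation (12.6%), 8 in nitrogen starvation (13.7%) and 8 with rapamycin (10.4%). On every one of these 7 arrays 7 of the 10 were at least 2-fold higher (2.04% of all genes), and DDR48, HBT1 and PNC1 were not. These counts follow from how the genes were chosen. Just inside and just outside the 2-fold limit lay NCE103 at heat shock (1.15) and PNC1 in amino acid starvation (1.09) on one side, and PNC1 in nitrogen starvation (0.89) on the other. The median of the 10 was highest in KCl (5.64), followed by 0.1% glucose (3.92), heat shock (3.35) and peroxide (2.89), and was 2.38 in nitrogen starvation, 2.38 in amino acid starvation and 1.88 with rapamycin.

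Genes of the same response outside the 10 had lower medians on each of these arrays. The 10 were chosen for large rises on them, so a higher median for the 10 follows from that choice. Of 67 other general stress genes listed, 48 had a value on all arrays. Their median log2 ratio was 3.07 at heat shock, 2.64 in KCl, 2.23 in 0.1% glucose, 1.74 in peroxide, 1.51 in amino acid starvation, 1.46 with rapamycin and 1.45 in nitrogen starvation. Heat shock came first for this list and KCl for the 10 genes. The list includes heat shock genes such as HSP26, and how far its order rests on them was not tested. The transcripts of the activators themselves stayed within 2-fold. In wild-type cells under single treatments MSN2 lay between −0.07 and 0.41 and MSN4 between −0.85 and 0.99.

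The 10 genes did not share 1 profile. Over the 14 arrays of treated cells, Pearson correlations between pairs of them had a median of 0.73 and ran from −0.39 for DDR48 with NCE103 to 0.93 for GRE1 with HBT1. These are descriptions over arrays that differ in treatment and strain. DDR48 with PNC1 (0.92), HBT1 with MSC1 (0.91) and DDR2 with SPI1 (0.90) were the next closest pairs. MSC1 was most like the mean of the other 9 (0.94) and NCE103 least (−0.06). Outside the 10, the named genes whose ratios were most like the mean of the 10 over the same 14 arrays were TFS1, a carboxypeptidase Y inhibitor (0.95), MCR1, a mitochondrial cytochrome b5 reductase (0.94), the aldehyde dehydrogenase gene ALD3 (0.93), PRM8 (0.92), the transketolase gene TKL2 (0.92), SOL1 (0.91), the phosphogluconate dehydrogenase gene GND2 (0.90), the hexose transporter gene HXT5 (0.90), the glutamate decarboxylase gene GAD1 (0.89) and the glutathione transferase gene GTT1 (0.89).

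The main comparison asked whether the snf1 strain gave the same response to the 3 treatments both strains received at the same stated dose: nitrogen starvation, 0.375 M KCl and 0.1% glucose. As ratios to mid-log cells of the same strain, DDR2, SPI1, GRE1 and HBT1 were at least 2-fold lower in snf1 cells in all 3 treatments. The average was 4.63-, 6.09-, 4.42- and 3.96-fold. PHM7, MSC1, NCE103, HSP12 and PNC1 were lower by smaller amounts, and DDR48 was not lower on average. None passed the test after adjustment over all genes (limma with the treatment as a block, Benjamini-Hochberg, 6 arrays). The wild-type arrays here also served to choose the 10 genes, so p-values for these genes are a description and not an independent test. Of the 30 differences, 28 were below 0: 9 of 10 in nitrogen starvation (45.7% of all genes), 10 in KCl (42.6%) and 9 in 0.1% glucose (52.2%).

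SPI1 had log2 ratios of −0.63 in nitrogen starvation, 4.99 in KCl and 2.20 in 0.1% glucose in snf1 cells, against 2.77, 7.25 and 4.36 in wild-type cells in the same order. In each treatment the snf1 value was more than 2 below the wild-type value, and in nitrogen starvation it was below 0. The mean difference was −2.61 (SE 0.289, adjusted p = 0.0886 by limma), the lowest of all 4653 genes. DDR2 was at 1.62 in nitrogen starvation, 5.25 in KCl and 4.94 in 0.1% glucose in snf1 cells, against 4.28, 7.47 and 6.69 in wild-type cells. It was lower by 1.75 or more in each treatment, with a mean difference of −2.21 (SE 0.234, adjusted p = 0.0886). In nitrogen starvation it ranked 239 in snf1 cells and 26 in wild-type cells.

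GRE1 was at −1.04 in nitrogen starvation, 4.26 in KCl and 2.08 in 0.1% glucose in snf1 cells, against 1.47, 6.78 and 3.48 in wild-type cells. The mean difference was −2.14 (SE 0.277, adjusted p = 0.124 by limma). HBT1 was at −0.46, 3.74 and 1.45 in snf1 cells, against 1.69, 5.32 and 3.68 in wild-type cells, in the order nitrogen starvation, KCl and 0.1% glucose. Its mean difference was −1.99 (SE 0.214, adjusted p = 0.0886). For both genes KCl remained the highest of these 3 treatments in either strain, and nitrogen starvation the lowest.

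NCE103 had nearly the same ratio in both strains in nitrogen starvation. It was at 4.42 in snf1 cells and 4.45 in wild-type cells there, while 5 of the 10 genes were lower by more than 1.7 in that treatment. In KCl it was at 3.45 in snf1 cells and 4.42 in wild-type cells, and in 0.1% glucose at 3.56 and 4.98. MSC1 was at 0.90, 5.29 and 4.03 in snf1 cells, against 2.69, 5.98 and 4.56 in wild-type cells, in the order nitrogen starvation, KCl and 0.1% glucose, so most of its difference lay in nitrogen starvation. PHM7 had the same pattern, at 1.08, 5.10 and 3.72 in snf1 cells and 2.61, 5.96 and 4.15 in wild-type cells. The mean differences were −0.81 for NCE103, −1.003 for MSC1 and −0.94 for PHM7 (adjusted p = 0.357, 0.321 and 0.310 by limma).

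HSP12 was at 1.27 in nitrogen starvation, 4.25 in KCl and 2.86 in 0.1% glucose in snf1 cells, against 2.15, 4.68 and 3.52 in wild-type cells. Unlike the 4 genes with large differences, it was less than 2-fold lower in each treatment. The mean difference was −0.66 (SE 0.194, adjusted p = 0.329 by limma). PNC1 was at 0.52, 2.23 and 0.91 in snf1 cells, against 0.89, 2.98 and 1.49 in wild-type cells (mean difference −0.57, SE 0.190, adjusted p = 0.350). DDR48 was at 0.69, 1.97 and 1.04 in snf1 cells, against 0.49, 2.11 and 0.57 in wild-type cells. It was lower in snf1 cells only in KCl, with a mean difference of 0.18 (SE 0.206, adjusted p = 0.712).

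**Figure D2:**
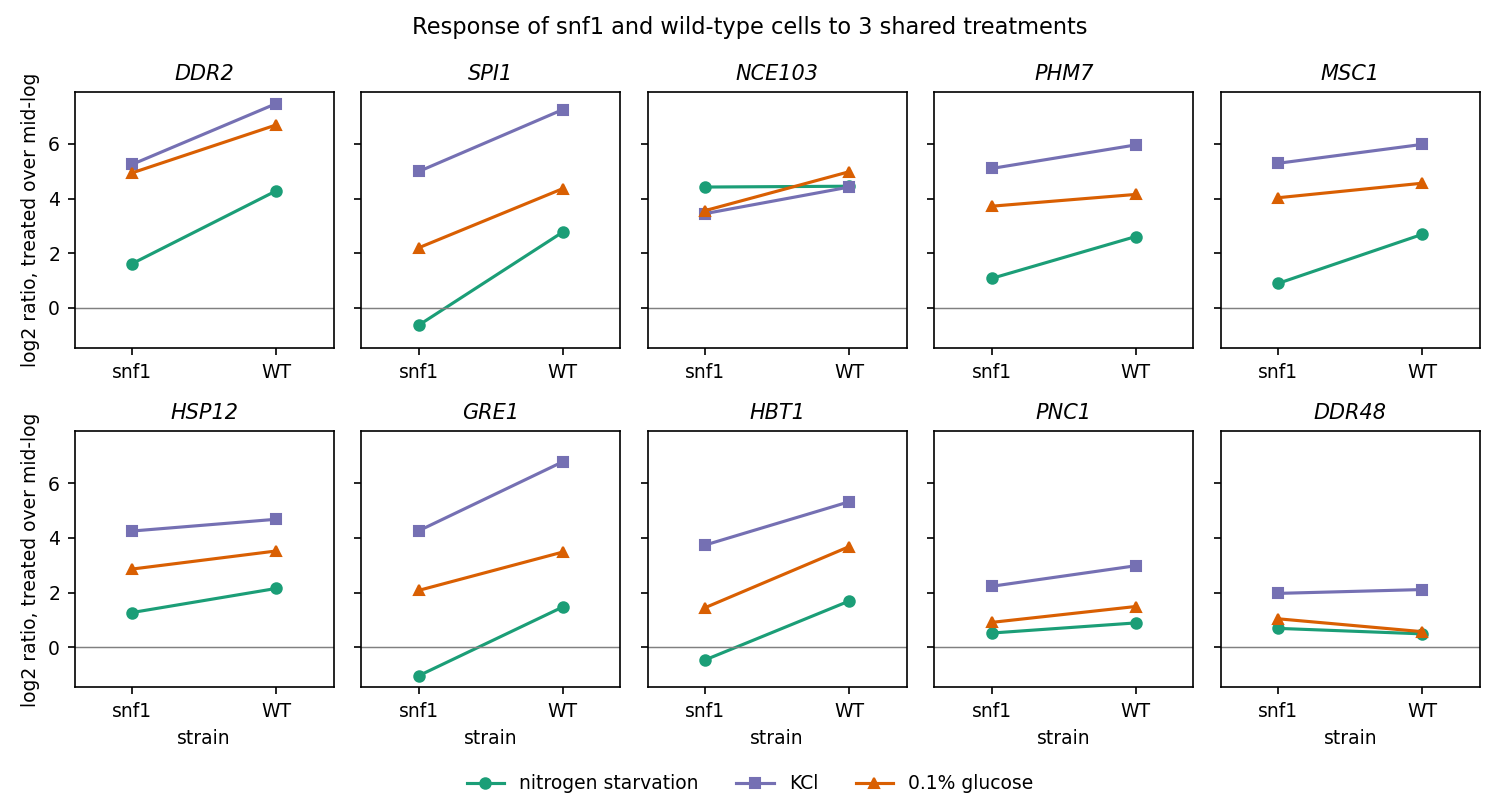
Log2 ratio of treated over mid-log cells (vertical axis) in the snf1 strain (left) and in wild type (right) for each of the 10 genes, with a line for each of the 3 shared treatments and 1 array per point. The lines of SPI1, DDR2, GRE1 and HBT1 climb steeply towards wild type in all 3 treatments, NCE103 is level in nitrogen starvation (4.42 and 4.45), and DDR48 is nearly flat.

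In the whole table limma called 0 genes higher (0.00%) and 0 lower (0.00%) in snf1 cells. At an unadjusted p under 0.05 it had 290 higher (6.23%) and 336 lower (7.22%), and 9 of the 10 genes, all but DDR48, were among the lower ones. Lower in all 3 treatments were 9 of the 10, against 17.6% of all genes, and at least 2-fold lower in all 3 were 4 of the 10, against 0.473% (22 genes). The wild-type arrays that chose the 10 genes also enter these differences, and genes that were high in wild-type cells were more often lower in snf1 cells than genes in general. Of 284 genes at least 2-fold higher in wild-type cells in all 3 treatments, 55.3% were lower in snf1 cells in all 3 and 6.34% at least 2-fold lower in all 3. The 8 of the 10 among those 284, all but DDR48 and PNC1, gave 8 and 4. The median difference was −1.50 for these 8 and −0.44 for the 284.

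Whether the test called these genes depended on the scaling and on 1 treatment. With each array centred on its median, DDR2, SPI1 and HBT1 had a limma adjusted p of 0.0318 and GRE1 one of 0.0402, 4 of the 9 genes called lower. Without the nitrogen starvation pair the same 4 genes passed (0.00152 to 0.00599). These values show only how the calls moved, since the wild-type arrays that chose the 10 genes enter each fit. With quantile normalization the median difference of the 10 was −0.29 in place of −0.97, PHM7 turned to 0.08 and none passed, with SPI1 at −1.79, HBT1 at −1.60, GRE1 at −1.46, DDR2 at −1.15, PNC1 at −0.36, NCE103 at −0.22, HSP12 at −0.09 and MSC1 at −0.05.

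Only in 0.1% glucose did both strains have arrays with the same handling of dim spots. There HBT1 differed by −2.23, SPI1 by −2.16, DDR2 by −1.75, NCE103 by −1.42, GRE1 by −1.40, HSP12 by −0.66, PNC1 by −0.58, MSC1 by −0.53, PHM7 by −0.43 and DDR48 by 0.47. At least 2-fold lower were 5 of the 10, against 6.64% of all genes. In nitrogen starvation 6 of the 10 were at least 2-fold lower (3.35% of all genes) and in KCl 4 (2.15%). The spread of all genes on these arrays, as a standard deviation, was 1.28 in snf1 and 1.22 in wild-type cells in nitrogen starvation, 1.03 and 1.18 in KCl, and 0.94 and 1.20 in 0.1% glucose. With every array scaled to one standard deviation, an alternative chosen after seeing the data, the median difference of the 10 was −0.37 and none passed. SPI1 was then at −2.04, GRE1 at −1.64, HBT1 at −1.58 and DDR2 at −1.45, and the other 6 lay between −0.37 and 0.34.

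**Figure D3:**
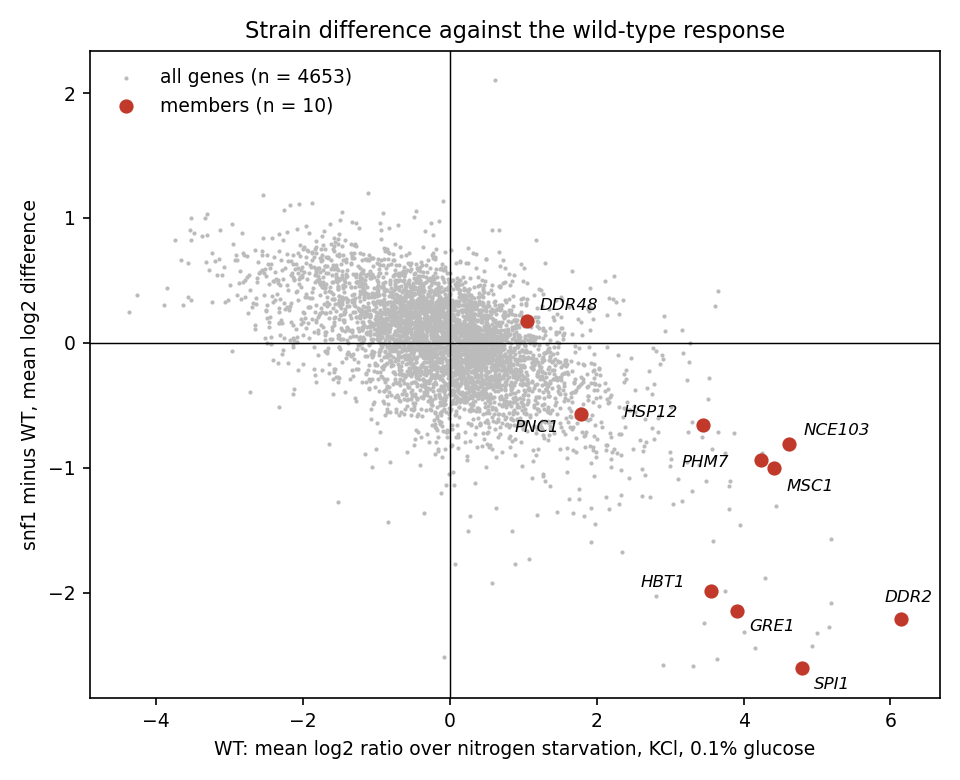
Mean log2 difference snf1 minus wild type over nitrogen starvation, KCl and 0.1% glucose (vertical axis) against the mean log2 ratio in wild-type cells (horizontal axis) for 4653 genes (grey) and the 10 genes (red). SPI1 is the lowest point shown at −2.61, the grey cloud slopes down, and the wild-type values enter both axes.

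Without treatment 9 of the 10 genes were within 2-fold between the strains. On the mid-log array of snf1 over wild type GRE1 was at 1.29, the only one of the 10 at least 2-fold higher (2.00% of all genes), and PNC1 was lowest at −0.92, with 0 of the 10 at least 2-fold lower (1.55%). The others were DDR48 at 0.48, MSC1 at 0.16, HSP12 at 0.13, DDR2 at −0.03, NCE103 at −0.11, SPI1 at −0.28, HBT1 at −0.43 and PHM7 at −0.43. When this array was added, so that both strains were set to wild-type mid-log cells, the mean difference of GRE1 became −0.85 and that of PNC1 −1.49. GRE1 then differed by −1.22 in nitrogen starvation and −1.23 in KCl, but by only −0.11 in 0.1% glucose. Under that setting SPI1 was at −2.89, HBT1 at −2.42 and DDR2 at −2.24. It rests on 1 more array, was chosen after seeing the data and has no test.

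SIP18, the paralog of GRE1 and also a hydrophilin, had no value on 3 arrays. These were wild-type rapamycin, wild-type peroxide and the mid-log strain array, so SIP18 could still be compared on these 6. It was at −0.91 in nitrogen starvation, 3.59 in KCl and 2.33 in 0.1% glucose in snf1 cells, against 1.67, 6.79 and 5.48 in wild-type cells. It was thus lower by 2.58 to 3.20 in each treatment. In the fit over the 5401 genes with a value on these 6 arrays, the ratio of SIP18 was lower in snf1 cells. The mean difference was −2.98 (SE 0.215, adjusted p = 0.0388 by limma), and SIP18 was the only gene called. It could not be set to wild-type mid-log cells, a step that took the mean difference of GRE1 from −2.14 to −0.85. Whether probes of the pair share signal was not tested. HOR7, the paralog of DDR2, was at 3.23, 3.66 and 2.31 in snf1 cells and 2.61, 3.98 and 3.95 in wild-type cells (adjusted p = 0.639). SED1, the paralog of SPI1, was at 0.29, 1.61 and 2.48 in snf1 cells and 1.02, 2.35 and 2.29 in wild-type cells (adjusted p = 0.477), both in the order nitrogen starvation, KCl and 0.1% glucose. As ratios to mid-log cells of the same strain, HOR7 was 1.64 lower in snf1 cells in 0.1% glucose but not lower in nitrogen starvation. On that scale SED1 was within 2-fold between the strains in all 3 treatments. Untreated snf1 cells already had more of both, with HOR7 at 1.13 and SED1 at 1.12 on the mid-log strain array. With both strains set to wild-type mid-log cells, HOR7 differed by −0.51 in 0.1% glucose, SED1 by 1.31 and DDR2 by −1.78. The mean differences were then 0.68 for HOR7 and 0.69 for SED1.

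Of the 48 other general stress genes, 0 passed in either direction, 45 had a difference below 0 and 29 were lower in snf1 cells in all 3 treatments, with a median difference of −0.60 against −0.97 for the 10 genes and 0.03 for all genes. TKL2 was lowest (−2.43, adjusted p = 0.149 by limma) and PIG2, a protein phosphatase subunit of glycogen metabolism, highest (0.69, adjusted p = 0.359). Signalling genes had a median difference of −0.02 with 0 of 32 passing, from SIP1, a Snf1 complex subunit (−0.75), to TPK3, a protein kinase A subunit (0.55). Genes listed for NAD synthesis and salvage, the pathway of PNC1, had a median of 0.09 with 0 of 18 passing. They ran from NDE1 (−0.98), an NADH dehydrogenase gene outside that pathway, to the nucleosidase gene URH1 (0.54). Cell wall genes had a median of −0.26 with 0 of 27 passing, from FIT2 (−1.92) to the cell wall integrity kinase gene SLT2 (0.52). Their median difference was −0.73 in nitrogen starvation and −0.42 in KCl but 0.37 in 0.1% glucose, where 4 were at least 2-fold higher and 0 lower. FIT2 was at 3.69 on the mid-log strain array, so its difference is between ratios that start from unlike mid-log levels.

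The snf1 strain was also placed in 0.02% glucose, a dose for which no wild-type array was analysed here. In these cells the log2 ratios in 0.02% glucose were 2.99 for DDR2, 1.64 for SPI1, 1.87 for HSP12, 1.78 for MSC1 and 2.04 for PHM7, against 4.94, 2.20, 2.86, 4.03 and 3.72 in 0.1% glucose. The lower dose gave the lower ratio for all 5. GRE1 was at 1.85 in 0.02% and 2.08 in 0.1% glucose, HBT1 at 0.41 and 1.45, DDR48 at 0.31 and 1.04, and PNC1 at 0.05 and 0.91. NCE103 was at 3.67 and 3.56, so 9 of the 10 genes were lower at the lower dose (48.2% of all genes). The whole 0.02% array had a narrower spread, with a standard deviation over all genes of 0.68 against 0.94 in 0.1% glucose. In the snf1 strain 7 of the 10 were at least 2-fold higher in 0.02% glucose (6.38% of all genes), 9 in 0.1% glucose (10.3%), 10 in KCl (10.7%) and 4 in nitrogen starvation (14.1%), where GRE1 was at least 2-fold lower (1 of 10, 18.6% of all genes).

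Starvation and stress were compared in wild-type cells as nitrogen starvation, amino acid starvation and 0.1% glucose against KCl, heat shock and peroxide. HSP12, PNC1 and DDR48 were lower in each starvation than in any stress, NCE103 was higher in each starvation, and the groups overlapped for the other 6 genes. The ratios that chose the 10 genes enter this comparison, so their differences are given as a description and no p is read for them. Over the whole table limma called 0 genes higher (0.00%) and 0 lower (0.00%), with 185 (3.98%) and 285 (6.13%) at an unadjusted p under 0.05. Across all genes 9.69% lay below stress without overlap and 5.89% above, beside 3 and 1 of the 10.

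DDR48 had log2 ratios of 0.49, 0.47 and 0.57 in the starvations, against 2.11, 2.51 and 2.83 in KCl, heat shock and peroxide. The mean difference was −1.97. PNC1 had 0.89, 1.09 and 1.49 in the starvations, against 2.98, 3.40 and 2.75 in the stresses, a mean difference of −1.89. HSP12 came to 2.15, 1.69 and 3.52, against 4.68, 4.12 and 3.89, with a mean difference of −1.78, and its 0.1% glucose value lay close to peroxide. NCE103 came to 4.45, 4.60 and 4.98, against 4.42, 1.15 and 3.14, with a mean difference of 1.77, and its KCl value lay just under the starvations. Without heat shock the difference of NCE103 was 0.90 and without KCl 2.53. For HBT1 the 2 means were the same at 2.50, with KCl far above and heat shock and peroxide below the starvations. SPI1 had the largest mean difference of the 10 (−2.59), which its peroxide value of 2.95, inside the range of the starvations, did not share.

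**Figure D4:**
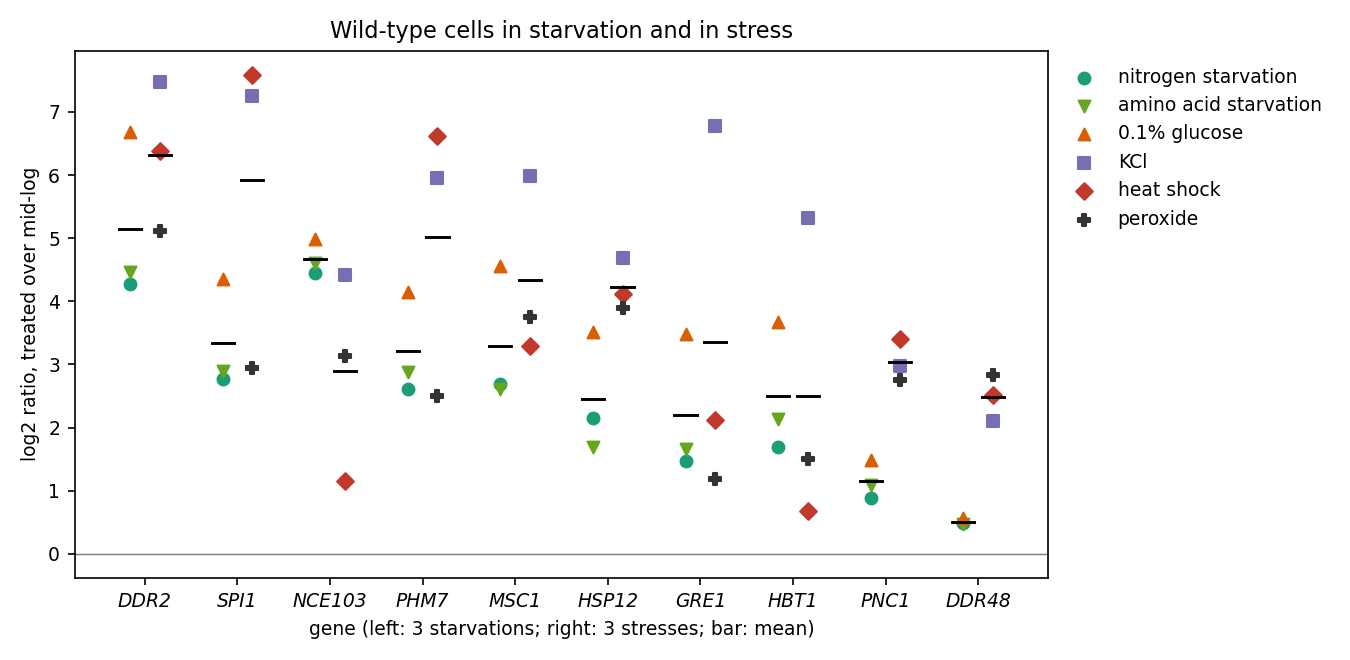
Log2 ratio of treated over mid-log wild-type cells (vertical axis) for each gene in the 3 starvations (left points) and the 3 stresses (right points), 1 array per point, with bars at the means. DDR48, PNC1 and HSP12 show starvation points all below the stress points, NCE103 shows them above, and the other 6 genes overlap.

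The lists gave no call in this comparison either. Of the 48 other stress genes, 0 passed limma and 37 had a difference below 0, with a median of −0.52 beside −1.48 for the 10 genes and −0.03 for all genes. They ran from the small heat shock gene HSP26 (−5.49) to the glycogen debranching gene GDB1 (1.30). Signalling genes (0 of 32 passing, median −0.08) ran from the 14-3-3 gene BMH1 (−0.90) to the repressor gene MIG1 (1.45). NAD genes (0 of 18, median 0.07) ran from NPT1, the next enzyme after PNC1 (−1.21), to the nicotinic acid permease gene TNA1 (0.63), and cell wall genes (0 of 27, median −0.01) from FIT2 (−1.72) to CCW12 (1.68).

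Treatments were also combined in wild-type cells, which asked whether one signal changes the response to another. With nitrogen starvation and KCl together most of the genes stood closer to KCl alone than to nitrogen starvation alone. DDR2 was at 6.34 in the combined treatment, against 4.28 in nitrogen starvation and 7.47 in KCl, and SPI1 at 5.65, against 2.77 and 7.25. GRE1 was at 6.69, against 1.47 and 6.78, and HSP12 at 4.80, against 2.15 and 4.68. All 10 genes were above nitrogen starvation, 9 of them by at least 2-fold (4.34% of all genes). Below KCl were 8, of which 2, DDR2 and SPI1, by at least 2-fold (10.7%). The shares of all genes above nitrogen starvation or below KCl by any amount were not counted. These arrays also served to choose the 10 genes, so the counts are a description. Over all genes the median difference of the combined array was 0.01 from nitrogen starvation and 0.02 from KCl. NCE103 was at 4.83, against 4.45 and 4.42, the only gene of the 10 less than 2-fold above nitrogen starvation. On the combined array 10 of the 10 were at least 2-fold higher (19.4% of all genes).

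**Figure D5:**
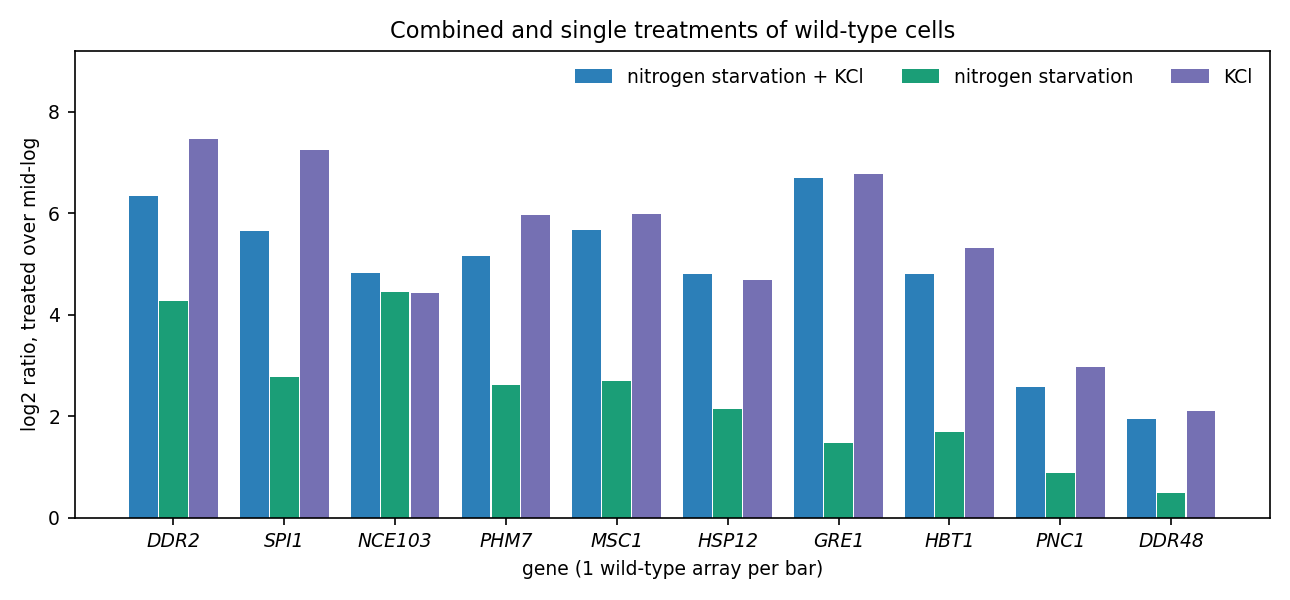
Log2 ratio of treated over mid-log wild-type cells (bars, from 0) in nitrogen starvation with KCl, in nitrogen starvation and in KCl, 1 array per bar. For every gene but NCE103 the combined bar is at least 1 above nitrogen starvation. It is more than 1 below KCl for SPI1 (5.65 and 7.25) and DDR2 (6.34 and 7.47), and within 1 of KCl for the other 8 genes.

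The other combinations removed glucose, per the titles a total carbon starvation, so the dose differs from the 0.1% glucose array and the values are set side by side only. In nitrogen and glucose starvation DDR2 was at 5.69, against 4.28 in nitrogen starvation and 6.69 in 0.1% glucose, HBT1 at 1.52, against 1.69 and 3.68, and MSC1 at 3.24, against 2.69 and 4.56. In glucose starvation with rapamycin DDR2 was at 5.31, against 4.50 with rapamycin and 6.69 in 0.1% glucose, NCE103 at 3.13, against 3.42 and 4.98, and PHM7 at 3.37, against 1.34 and 4.15. All 10 genes lay below their 0.1% glucose value on both combined arrays, with SPI1 closest to it (4.19 and 4.35, against 4.36). The median difference was −0.96 and −1.11. For all genes it was −0.08 and −0.07, also below 0, and their share below was not counted. These arrays also served to choose the 10 genes, so the counts of genes below are a description and no trait is read from them. With quantile normalization 8 of the 10 lay below on each array. Recentring gave 10 in nitrogen and glucose starvation and 9 in glucose starvation with rapamycin. At least 2-fold higher were 8 of the 10 in nitrogen and glucose starvation (13.3% of all genes) and 8 in glucose starvation with rapamycin (11.8%). DDR48 and PNC1 were the exceptions on both arrays, at 0.20 and 0.99 on the first and 0.18 and 0.62 on the second.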

How the data were processed

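The deposited table gave, for each of 15 arrays of 2-colour hybridisations, 1 log2 ratio of Cy5 over Cy3 per probe, rounded to 2 decimals. The sources used here do not state the base of the log. Base 2 was taken because the deposited extremes, −7.18 and 9.47, would exceed a scanner's range on a log10 scale, and another base would rescale every value. The sources used here do not state how the authors corrected background, normalized the deposited values or filtered spots. Per the labels' dyes, treated cells were in Cy5 except on the peroxide array, which was turned. Probes were named from the platform annotation (4075 of 6256 gene probes had 1 symbol, 0 several, 2181 none), 129 symbols were updated through RefSeq (R64), and probes of 1 gene were averaged. The number of columns left unused was 0.

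Values were neither recentred nor rescaled. Single arrays were described by values and by counts at least 2-fold higher or lower (log2 ratio of at least 1 or at most −1). The comparisons of snf1 with wild type (treatment as a block) and of starvation with stress were fitted with limma 3.58.1 in R 4.3.3 over 4653 genes. Benjamini-Hochberg adjustment and a threshold of 0.05 were used. Both fits were first run on simulated data with independent noise and no differences between treatments. That checks the code and not how the fits behave on unreplicated treatments. The spread in both fits to the real arrays is that between treatments, since no condition was replicated. Genes outside the 10 were named by rule: paralogs, the highest and lowest of each list unless genes of it were called, SNF1, and the 10 genes most like the mean of the 10. MSN2, MSN4, flanking genes and those in counts over all 3 treatments were named after their values were seen. The 10 genes, the gene lists and the tests were chosen with earlier results of these data known. Alternatives were the handling of zeros, recentring, quantile normalization, the block, robust variances, left-out arrays and other fold limits.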

Additional observations from a re-analysis of the deposited data

Results flagged for a closer look

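In nitrogen starvation 3 of the 10 genes lay on opposite sides of 0 in the strains, each on 1 array, and these differences within 1 treatment were not tested. SPI1 was at −0.63 in snf1 cells and 2.77 in wild-type cells (−3.40), GRE1 at −1.04 and 1.47 (−2.51) and HBT1 at −0.46 and 1.69 (−2.15). The wild-type array of this pair had many exact zeros and the snf1 array few, and the part of that handling in these values was not tested. The mid-log array of snf1 over wild type gave 1.29 for GRE1, so that set to wild-type mid-log cells GRE1 differed by −1.22 in this treatment, SPI1 by −3.68 and HBT1 by −2.58.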

How the results depend on the processing

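Of 86 alternatives for counts and summary values 76 stayed within the limits set. Of 210 for single genes of the 10, 189 kept direction and side of the threshold. Another 11 belonged to HBT1 in starvation against stress (main difference 0.00, no direction, −0.91 to 1.41). The threshold was now passed by 8 (DDR2, SPI1, GRE1 and HBT1, by recentring and without nitrogen starvation), and 2 reversed. Many of the 210 could not turn a difference. Keeping zeros, robust variances, dropping the block and the 6-array gene set left the differences of the 10 unchanged. The fit without peroxide also entered both on its own and among the left-out arrays. In the comparison of snf1 with wild type, the 0 genes lower became 9 with recentring, 1 with quantile normalization (SIT1), 1 over the genes with a value on the 6 arrays (SIP18) and, by an alternative chosen after seeing the data, 1 with arrays scaled to one standard deviation (SIT1). Of the 10 genes, 4 were called with recentring. Leaving out each treatment pair gave 0 to 17 genes higher, 0 to 27 lower and 0 to 4 of the 10 called, with all of these calls in the fit without nitrogen starvation. In starvation against stress, leaving out each array gave 0 to 43 genes higher and 0 to 5 lower, with all calls in the fit without 0.1% glucose, and 0 of the 10 called. PHM7 turned to 0.0817 with quantile normalization and GRE1 to 0.55 in starvation against stress without KCl (−2.25 to 0.55 over the left-out arrays). Leaving out each array in starvation against stress gave 0.90 to 2.53 for NCE103, −2.16 to −1.80 for DDR48, −2.05 to −1.71 for PNC1, −2.31 to −1.40 for HSP12, −4.08 to −1.76 for SPI1, −3.08 to −1.02 for PHM7, −1.95 to −0.60 for DDR2 and −1.69 to −0.23 for MSC1. The cause was not tested. The strains were paired by treatment, and without the treatment block 0 genes were called higher and 0 lower, with the standard error of DDR2 at 1.17 in place of 0.234 (limma adjusted p = 0.999). The labels give no replicate numbers. Signal over background is not in the table, so dim genes could not be told from bright ones.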

Other observations

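The genes beside the 10 on the chromosomes were looked up as well. RefSeq (R64) gives 20 flanking genes, of which 12 had a named probe, and 3 of these were at least 2-fold higher in KCl in wild-type cells (12.4% of all genes). PAI3, an inhibitor of the vacuolar protease Pep4 that lies next to DDR48, was at 4.10 in KCl and 3.31 in 0.1% glucose, where DDR48 itself was at 2.11 and 0.57. It was at least 2-fold higher on all 5 of the wild-type single-treatment arrays that gave it a value. The other flanking genes that reached 2-fold in KCl were RSC9, a chromatin remodelling subunit gene (1.07), and COX14 of cytochrome oxidase assembly (1.00), which both lie beside MSC1 (5.98). HOT1, an activator of osmotic stress genes on the other side of DDR48, was at 0.15 in KCl, and SPE2, which lies beside DDR2, ran from −1.70 to −0.41 over the 7 wild-type arrays of single treatments.

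Of the 22 genes at least 2-fold lower in snf1 cells in all 3 shared treatments, 4 were from the 10 genes, 3 were other general stress genes (TKL2, GND2 and TSL1) and 7 had no name in the annotation. The named rest held transporter genes, among them HXT5 (−1.88), HXT6 (−2.59, whose probe may also read HXT7) and the siderophore transporter gene SIT1 (−2.51), and PUT1 of proline breakdown (−2.24), as mean log2 differences of snf1 minus wild type.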
